A study of Homo sapiens with 4 samples.

Results

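The p53 pathway was followed through 30 genes in BEAS-2B, a line of human bronchial epithelial cells. The genes were taken by symbol from a named list of p53 regulators and p53 targets, and all 30 were found among the 24424 gene symbols counted. They fall into 5 regulators, 8 genes of cell cycle arrest, 5 of DNA repair, 9 of cell death and survival, and 3 of metabolism and redox control. RNA sequencing gave 4 libraries, 1 for each group: siOCLN+LPS (an siRNA against occludin for 24 h, then LPS for 2 h), wtOCLN+LPS (transfection of wild-type occludin for 24 h, then LPS for 2 h), LPS (LPS for 2 h, with no transfection named) and control (no treatment). All cells had the genotype given as wild type. LPS is bacterial lipopolysaccharide, and occludin, encoded by OCLN, is a membrane protein of tight junctions. Values are CPM, counts scaled to 1000000 per library. With 1 library a group no p-value was computed, each statement compares libraries, and every 95% interval covers counting error only.

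p53 is a transcription factor that is held low by the ubiquitin ligase MDM2 and its partner MDM4, and is stabilised when kinases such as ATM and CHEK2 respond to DNA damage. It then raises genes that halt the cell cycle, repair DNA or drive cell death, and MDM2 itself, which closes a feedback loop. BEAS-2B cells were immortalised with an adenovirus and SV40 hybrid virus, whose large T antigen binds p53, so the pathway in this line is not that of an unmodified airway cell. Several of the same genes also answer to other signals: PLK2, PLK3, BTG2 and GADD45B are known as early response genes, and GADD45A as a gene of the integrated stress response.

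Promoter windows were matched by symbol for 25 of the 30 genes (all but ASCC3, GADD45A, PHLDA3, RRM2B and TP53INP1) in 36 windows of 300 bases, from 250 before to 50 after an annotated start, from RefSeq on GRCh38.p14. They were searched on both strands for the p53 half-site and for a p53 full site, meaning 2 half-sites side by side with at most 2 mismatches. A full site was found in windows of AEN, DDB2 and MDM2, in 4 of the 36 windows, against 228 of all 35116 windows (0.649%). These 3 windows are shown because they carry the pathway's own motif, and the capitals mark the full site. The MDM2 window lies at chr12:68808767-68809066 on the + strand, with the site at bases -94 to -75 from the start. The DDB2 window lies at chr11:47214724-47215023 on the + strand, with the site from base -5 to base 15, and the AEN window at chr15:88621090-88621389 on the + strand, with the site at bases -34 to -15.
MDM2: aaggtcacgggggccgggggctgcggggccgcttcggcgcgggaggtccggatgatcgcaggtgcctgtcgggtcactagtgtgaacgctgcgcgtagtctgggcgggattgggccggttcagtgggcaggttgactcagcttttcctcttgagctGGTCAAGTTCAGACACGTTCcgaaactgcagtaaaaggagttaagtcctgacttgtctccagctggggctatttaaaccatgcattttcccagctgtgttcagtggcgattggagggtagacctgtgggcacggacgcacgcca
DDB2: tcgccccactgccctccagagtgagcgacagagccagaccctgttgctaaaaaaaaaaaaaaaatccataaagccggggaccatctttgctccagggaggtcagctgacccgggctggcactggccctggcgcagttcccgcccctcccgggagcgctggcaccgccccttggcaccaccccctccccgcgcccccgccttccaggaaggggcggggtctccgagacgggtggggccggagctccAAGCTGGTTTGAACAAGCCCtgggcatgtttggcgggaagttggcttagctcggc
AEN: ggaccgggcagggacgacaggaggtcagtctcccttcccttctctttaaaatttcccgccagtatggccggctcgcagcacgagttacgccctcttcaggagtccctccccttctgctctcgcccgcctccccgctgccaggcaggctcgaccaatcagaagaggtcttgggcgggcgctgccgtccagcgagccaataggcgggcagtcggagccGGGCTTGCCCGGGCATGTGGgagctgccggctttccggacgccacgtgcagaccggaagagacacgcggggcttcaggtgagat
PLK2 and PLK3 are shown because they were the genes farthest above control after LPS. In the PLK2 window, chr5:58460037-58460336 on the - strand, the capitals mark a p53 half-site, which 6.63% of all windows hold. In the PLK3 window, chr1:44800127-44800426 on the + strand, they mark the ATF4 letters TGATGNAA, held by 3.62% of all windows.
PLK2: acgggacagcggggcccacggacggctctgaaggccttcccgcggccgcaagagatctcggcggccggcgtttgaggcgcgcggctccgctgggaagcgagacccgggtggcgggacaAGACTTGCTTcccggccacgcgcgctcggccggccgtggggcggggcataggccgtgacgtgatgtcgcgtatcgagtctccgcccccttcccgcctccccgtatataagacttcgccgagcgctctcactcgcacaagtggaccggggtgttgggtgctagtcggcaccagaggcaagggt
PLK3: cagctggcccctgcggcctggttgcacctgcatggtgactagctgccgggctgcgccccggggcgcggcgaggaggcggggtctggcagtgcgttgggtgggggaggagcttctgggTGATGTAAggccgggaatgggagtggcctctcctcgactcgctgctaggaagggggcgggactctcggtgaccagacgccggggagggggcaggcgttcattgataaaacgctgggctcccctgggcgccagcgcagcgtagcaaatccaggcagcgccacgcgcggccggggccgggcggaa
The NF-kB site, the SRF CArG box and the interferon response element were found in none of the 36 windows, and in 5.91%, 1.29% and 3.57% of all windows. In total 11 motifs were searched. The p53 half-site was in 5 of the 36 windows (6.63% of all windows) and the AP-1 letters TGANTCA in 5 (7.71%). The CRE half-site letters TGACG were in 10 (24.6%) and the E-box letters CACGTG in 4 (7.26%). The CRE letters TGACGTCA, the ATF4 letters and the TATA box were in 1 each (1.85%, 3.62% and 11.5%). Some genes had more than 1 window. By gene, the p53 half-site was in 5 of the 25 (8.06% of all genes with a window) and the AP-1 letters in 3 (9.37%). The CRE half-site letters were in 10 genes (28.4%), the E-box letters in 3 (8.77%) and the p53 full site in 3 (0.820%). A match or its absence describes the letters in these windows and not the binding of a factor.

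Library totals were 17476333 in siOCLN+LPS, 17500031 in wtOCLN+LPS, 13867494 in LPS and 15889736 in control, so 1 count was worth 0.0571 to 0.0721 CPM. OCLN stood at 21 CPM in siOCLN+LPS, 29.7 CPM in wtOCLN+LPS, 50.4 CPM in LPS and 55.4 CPM in control. The library labelled wtOCLN+LPS therefore held less OCLN than LPS, against its label, so wtOCLN+LPS stands for the library so labelled, and none of its values is read as an effect of added occludin. Epithelial markers were present, with KRT8, a simple epithelial keratin, at 976, 919, 372 and 442 CPM in the same order. Of the other cell types, the ciliated cell regulator FOXJ1 and the lymphocyte gene CD3E had 0 counts in every library, and 6 of 8 fibroblast markers stayed below 1 CPM throughout. The remaining markers of these lists, named after their values were seen, were not silent. The fibroblast and pericyte receptor gene PDGFRB was at 49.4 CPM in siOCLN+LPS, 55.4 CPM in wtOCLN+LPS, 13.8 CPM in LPS and 12.3 CPM in control, while the collagen gene COL1A1 was at 56.1, 55.2, 62.7 and 57.6 CPM. The macrophage gene CD68 was at 4.98, 7.49, 16.6 and 16.6 CPM, and the cilium gene CCDC39 at 1.77, 1.66, 2.16 and 2.90 CPM. PDGFRB thus stood high and CD68 low in the transfected pair, and their part in the values of the p53 genes was not tested.

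Of the 30 pathway genes, 27 reached 5 CPM in each library. Only EDA2R, a receptor of the TNF receptor family, stayed below 1 CPM everywhere, on 14, 5, 4 and 13 counts in siOCLN+LPS, wtOCLN+LPS, LPS and control. SPATA18, a gene of mitochondrial quality control, had 16, 14, 11 and 16 counts in that order, and the ceramidase gene ACER2 had 23, 23, 29 and 44. Per kilobase of transcript, CDKN1A was the most abundant in all 4 libraries, at 295, 283, 188 and 153 CPM per kilobase, with PLK2 next to it in the 3 libraries given LPS.

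LPS against control asks how the pathway stood 2 h into the inflammatory response. The polo-like kinases PLK2 and PLK3 and the lysosomal autophagy gene DRAM1 lay above control by 2-fold or more, and no gene of the pathway was at least 2-fold lower. PLK3, a stress-responsive kinase, was at 127 CPM in siOCLN+LPS, 122 CPM in wtOCLN+LPS, 159 CPM in LPS and 36.2 CPM in control. It was 4.4-fold higher in LPS than in control (4.01 to 4.83), and all 3 libraries given LPS lay above control. PLK2, a kinase of centriole duplication, was at 304, 346, 406 and 109 CPM in the same library order, and 3.71-fold higher in LPS than in control (3.52 to 3.92). DRAM1 was at 56.5, 54.7, 64.8 and 27.7 CPM, 2.34-fold higher (2.08 to 2.63). For these genes control was the only low library. Exons of PLK3 share bases on the opposite strand with TCTEX1D4, which had 120, 107, 279 and 56 counts in that order. The largest shared stretch was 78 bases. With the strand setting of the counting not known, reads from the shared bases cannot be assigned to either gene.

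**Figure D1:**
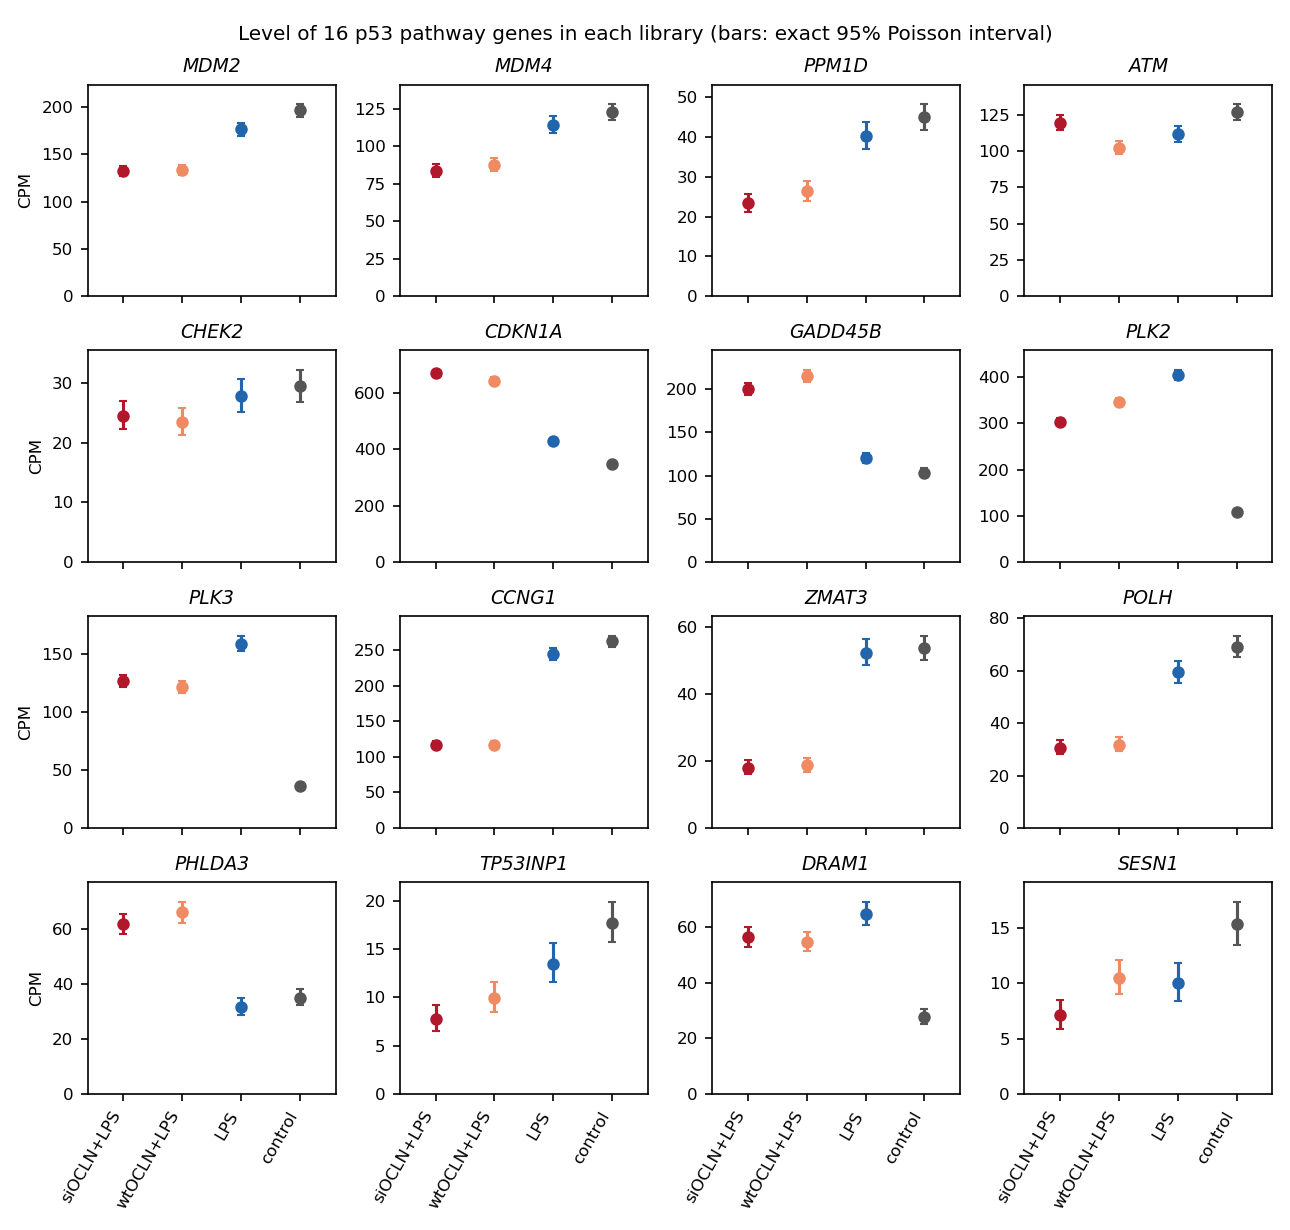
Level in CPM (vertical axis, from 0) of the 16 p53 pathway genes named in full, in the libraries siOCLN+LPS, wtOCLN+LPS, LPS and control from left to right. Points are single libraries and bars are exact 95% Poisson intervals. PLK2, PLK3 and DRAM1 are low in control alone, while CCNG1, ZMAT3 and POLH are low, and CDKN1A, GADD45B and PHLDA3 high, in both transfected libraries.

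Counts were read on the scale of log2(CPM + 1), which understates the change of genes with few counts, where at least one library of the pair reached 1 CPM. In LPS over control 29 of the 30 genes were tested, 3 were at least 2-fold higher and 0 at least 2-fold lower. Among all 13551 genes tested, 1.6% were at least 2-fold higher and 0.207% at least 2-fold lower. The median log2 ratio of the pathway genes was -0.10, beside -0.09 over all genes, with 13 pathway genes above the median of all genes and 16 below it. The antiproliferative gene BTG2 came next, at 57.0 CPM in LPS and 29.6 CPM in control, 1.93-fold (1.72 to 2.16), and it passed 2-fold with TMM scaling, where its log2 ratio was 1.01 in place of 0.92. The growth arrest gene GADD45A was 1.36-fold (1.27 to 1.47) and CDKN1A, which encodes the cyclin-dependent kinase inhibitor p21, 1.23-fold higher (1.19 to 1.28). All 5 regulators lay at log2 ratios of -0.19 to -0.08 and all 5 repair genes at -0.29 to -0.04. The lowest repair genes, DDB2 and POLH, stood at the percentiles 15.6 and 24.6 of all genes tested. Their ratios were 0.807 (0.666 to 0.976) and 0.859 (0.784 to 0.941). At the low end stood the sestrin gene SESN1, with a ratio of 0.655 (0.528 to 0.811), the quinone oxidoreductase gene TP53I3 at 0.719 (0.598 to 0.864) and the ferredoxin reductase gene FDXR at 0.747 (0.646 to 0.862). The NF-kB target list, which like the other lists was chosen with earlier results of these data known, had 15 of 15 genes above control by 2-fold or more.

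The transfected libraries against LPS compare LPS-treated cells with and without a named transfection of 24 h, and both comparisons share the LPS library. No library was transfected without LPS. A difference already present before LPS therefore cannot be told apart from a changed LPS response. Of 28 pathway genes tested, ZMAT3 and CCNG1 (7.14%) were at least 2-fold lower in each, beside 3.92% of all genes in siOCLN+LPS and 3.69% in wtOCLN+LPS. At 1.5-fold, 4 genes were higher in each, CDKN1A, GADD45B, PHLDA3 and TP53I3, by 1.5-fold to 2.08-fold. Among all genes 9.09% and 8.59% were. In the other direction 5 and 6 genes were at least 1.5-fold lower, beside 15.3% and 15.1% of all genes. Because the labels name no mock transfection, an effect of transfection cannot be told apart from an effect of occludin siRNA or of the occludin construct. In bulk RNA, fewer cells with a transcript and less of it in each cell cannot be told apart.

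ZMAT3 encodes a zinc finger protein that binds RNA. It was at 18.0 CPM in siOCLN+LPS, 18.8 CPM in wtOCLN+LPS, 52.3 CPM in LPS and 53.6 CPM in control. Its ratio to LPS was 0.345 (0.301 to 0.394) in siOCLN+LPS and 0.360 (0.315 to 0.410) in the library labelled wtOCLN+LPS, the lowest of the pathway in both. CCNG1, the gene of cyclin G1, was at 117 CPM in siOCLN+LPS, 117 CPM in wtOCLN+LPS, 244 CPM in LPS and 262 CPM in control. Its ratios to LPS were 0.477 (0.452 to 0.505) and 0.478 (0.452 to 0.505). For both genes the transfected libraries were the low pair and LPS lay near control. On the log2(CPM + 1) scale CCNG1 stood at -1.06 in both comparisons with library totals, but at -0.91 in siOCLN+LPS and -0.89 in wtOCLN+LPS with TMM scaling, within 2-fold.

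CDKN1A was at 669 CPM in siOCLN+LPS, 642 CPM in wtOCLN+LPS, 427 CPM in LPS and 346 CPM in control. It exceeded its LPS level 1.57-fold in siOCLN+LPS (1.52 to 1.62) and 1.5-fold in wtOCLN+LPS (1.46 to 1.55). GADD45B, a stress sensor upstream of p38 and JNK kinases, was at 199.9, 216, 121 and 103 CPM in the same order, 1.66-fold (1.56 to 1.76) and 1.79-fold (1.69 to 1.89) higher than in LPS. Its paralog GADD45A was at 142, 151, 121 and 88.5 CPM, with ratios to LPS of 1.18 (1.11 to 1.25) and 1.25 (1.18 to 1.33). The transfected libraries were thus the highest for all 3 genes and control the lowest. PLK2, PLK3 and BTG2, the arrest genes farthest above control in LPS, a comparison that uses the same LPS library, lay below LPS in both transfected libraries, with ratios of 0.750, 0.797 and 0.680 in siOCLN+LPS and 0.852, 0.764 and 0.605 in wtOCLN+LPS.

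With library totals the regulators lay below LPS in both transfected libraries, apart from ATM in siOCLN+LPS. Relative to the all-gene median, 4 of the 5 lay below it in each, and ATM lay above it in both. MDM2 was at 132 CPM in siOCLN+LPS, 134 CPM in wtOCLN+LPS, 176 CPM in LPS and 196 CPM in control, with ratios to LPS of 0.751 (0.709 to 0.795) and 0.757 (0.715 to 0.802). MDM4 was at 83.7, 87.8, 114 and 123 CPM, with ratios of 0.732 (0.681 to 0.786) and 0.768 (0.715 to 0.824). PPM1D, the phosphatase that switches off the damage signal, was at 23.4, 26.3, 40.4 and 45 CPM, with ratios of 0.580 (0.509 to 0.660) and 0.652 (0.575 to 0.739). All 3 negative regulators were lowest in the transfected pair, but none passed 2-fold, and with library totals 8206 of 13505 genes in siOCLN+LPS and 8523 of 13493 in wtOCLN+LPS also lay below LPS. MDM2 stood at the percentiles 26.2 and 27.2 of all genes tested, MDM4 at 23.9 and 28.9, and PPM1D at 8.48 and 14.4. The kinase genes stayed closer to LPS: ATM was at 119.7, 102, 112 and 127 CPM, with ratios of 1.07 (1.0 to 1.15) and 0.918 (0.858 to 0.984), and its log2 ratio in wtOCLN+LPS turned from -0.12 with library totals to 0.04 with TMM scaling. CHEK2 was at 24.5, 23.5, 27.8 and 29.5 CPM, with ratios of 0.882 (0.767 to 1.01) and 0.844 (0.733 to 0.972). Besides PLK3, 6 of the pathway genes share exon bases with a measured gene on the opposite strand. Reads from the shared bases cannot be assigned to either gene of a pair. The pairs were ATM with NPAT and C11orf65, CHEK2 with HSCB, MDM2 with CPM (the carboxypeptidase M gene), POLH with GTPBP2, TP53I3 with FAM228B and XPC with LSM3. The longest shared stretch was 318 bases, in XPC, and LSM3 had 1014, 862, 610 and 768 counts in siOCLN+LPS, wtOCLN+LPS, LPS and control.

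Among the repair genes, POLH stood apart from the other 4. POLH, the translesion polymerase eta, was at 30.7 CPM in siOCLN+LPS, 31.8 CPM in wtOCLN+LPS, 59.3 CPM in LPS and 69.1 CPM in control. Its ratios to LPS were 0.517 (0.463 to 0.577) and 0.535 (0.480 to 0.597), just inside 2-fold. The nucleotide excision repair genes XPC and DDB2, the ribonucleotide reductase gene RRM2B and the helicase gene ASCC3 had ratios of 0.813 to 0.972 in siOCLN+LPS and of 0.743 to 1.05 in wtOCLN+LPS. XPC and DDB2 had intervals that included 1 in both.

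Of the death and survival genes, PHLDA3, an inhibitor of AKT signalling, was the one clearly above LPS. It was at 61.6 CPM in siOCLN+LPS, 66.0 CPM in wtOCLN+LPS, 31.7 CPM in LPS and 35.1 CPM in control, 1.95-fold (1.74 to 2.18) and 2.08-fold (1.87 to 2.33) higher than in LPS. Only wtOCLN+LPS passed 2-fold with library totals (log2 ratio 1.04), while with TMM scaling siOCLN+LPS passed too (1.08). PERP, a desmosome-associated membrane protein gene, was at 35.6, 31.1, 51.6 and 47.3 CPM, with ratios to LPS of 0.690 (0.619 to 0.770) and 0.603 (0.538 to 0.675). TP53INP1, a gene of stress-induced death and autophagy, was at 7.78, 9.94, 13.5 and 17.7 CPM, with ratios of 0.577 (0.459 to 0.724) and 0.737 (0.596 to 0.911). TRIAP1, a survival gene of mitochondria, had ratios of 0.745 and 0.734, DRAM1 of 0.872 and 0.844, and the apoptosis-enhancing nuclease gene AEN of 0.906 and 0.878. In siOCLN+LPS over LPS the sign of AEN, XPC, DDB2 and ASCC3 differs between scalings. ACER2 had ratios of 0.629 (0.348 to 1.13) and 0.628 (0.347 to 1.12). The metabolic genes did not move as one. TP53I3 was at 24.8, 22.0, 14.0 and 19.4 CPM, with ratios of 1.77 (1.49 to 2.11) and 1.57 (1.32 to 1.88), and FDXR had ratios of 1.47 (1.28 to 1.69) and 1.25 (1.08 to 1.44). SESN1 had a ratio of 0.708 (0.551 to 0.908) in siOCLN+LPS and of 1.04 (0.832 to 1.31) in wtOCLN+LPS.

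**Figure D2:**
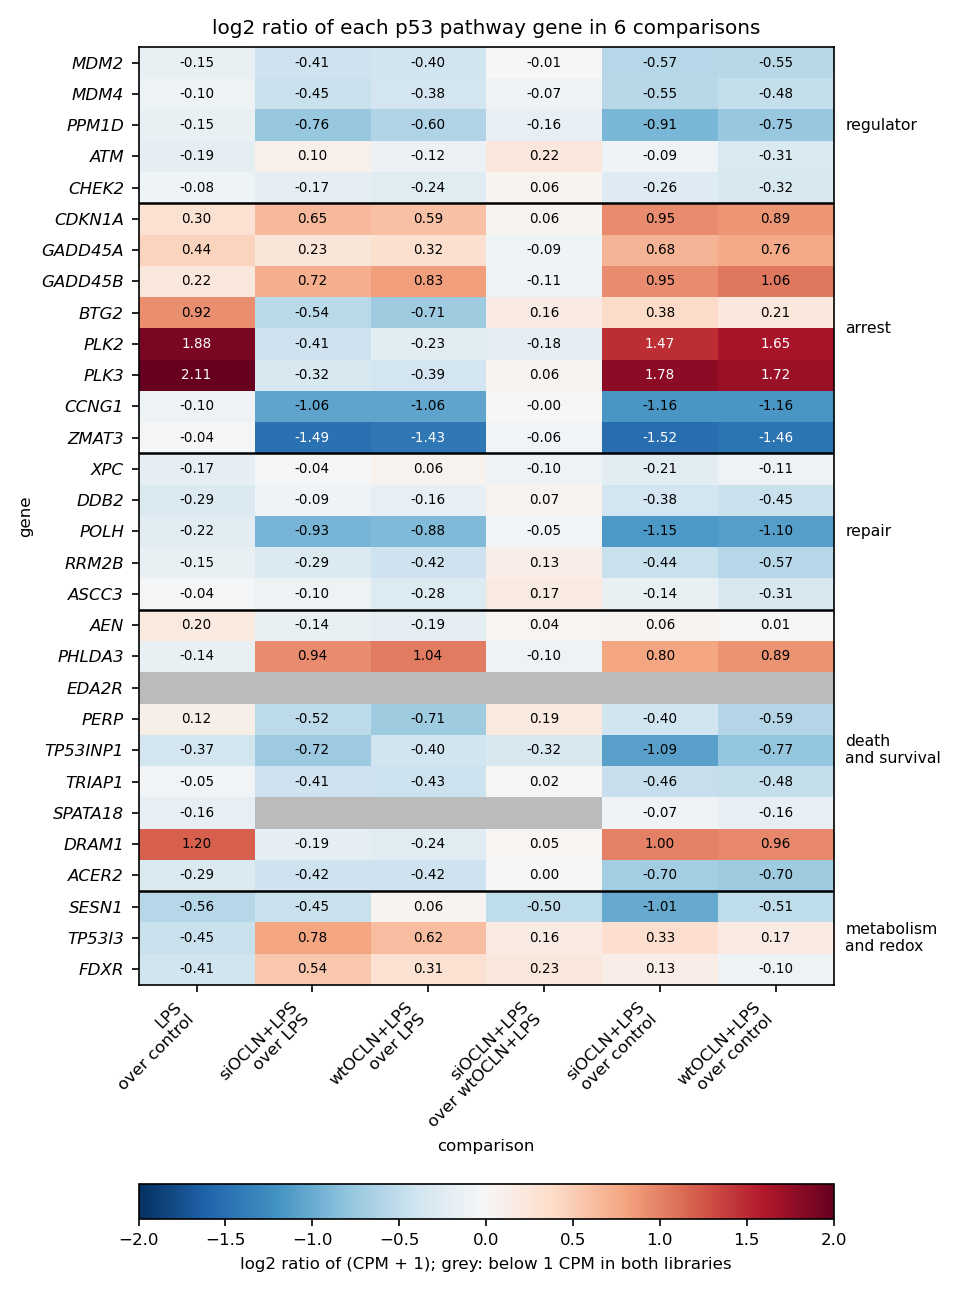
log2 ratio of (CPM + 1) for each of the 30 genes (rows, grouped by role) in 6 comparisons (columns), red where the first-named library is higher and blue where it is lower. Grey cells are genes below 1 CPM in both libraries. PLK3 at 2.11 in LPS over control and ZMAT3 at -1.52 in siOCLN+LPS over control are the extremes, and the column of siOCLN+LPS over wtOCLN+LPS is pale throughout.

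In siOCLN+LPS over LPS, 28 pathway genes were tested, 0 were at least 2-fold higher and 2 at least 2-fold lower, where 3.32% of all 13505 genes were higher and 3.92% lower. In the library labelled wtOCLN+LPS over LPS, 28 were tested, 1 was higher and 2 were lower, where 3.32% of all 13493 genes were higher and 3.69% lower. The pathway medians were -0.31 and -0.26 on the log2 scale, beside -0.13 and -0.15 over all genes. With TMM scaling the all-gene medians moved to 0.01 and 0.01, and of all genes 2-fold apart 45.9% and 47.4% were higher with library totals, but 61.5% and 64.9% with TMM. Positions relative to the all-gene median are therefore given: 10 pathway genes lay above it and 18 below in siOCLN+LPS, and 9 above and 19 below in wtOCLN+LPS. At 1.5-fold, 4 and 4 genes were higher (9.09% and 8.59% of all genes) and 5 and 6 were lower (15.3% and 15.1% of all genes). Other programmes also differed in these comparisons: 13 of 15 interferon-stimulated genes in siOCLN+LPS and 15 of 15 in wtOCLN+LPS were at least 2-fold higher, 10 and 7 of 15 ATF4 and CHOP targets at least 2-fold lower, and summed epithelial markers were 1661 CPM in siOCLN+LPS and 1566 CPM in wtOCLN+LPS, against 697 CPM in LPS and 848 CPM in control. That sum is mostly KRT8 and the keratin gene KRT18, and 4 of the 6 markers lay above LPS in each transfected library. The adhesion gene EPCAM lay below LPS, at 1.26 CPM in siOCLN+LPS and 1.60 CPM in wtOCLN+LPS, against 2.67 CPM in LPS, as did the basal keratin gene KRT5, at 19.1 and 19.9 CPM, against 22.4 CPM in LPS. The part of these programmes and markers in the values of the p53 genes was not tested.

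**Figure D3:**
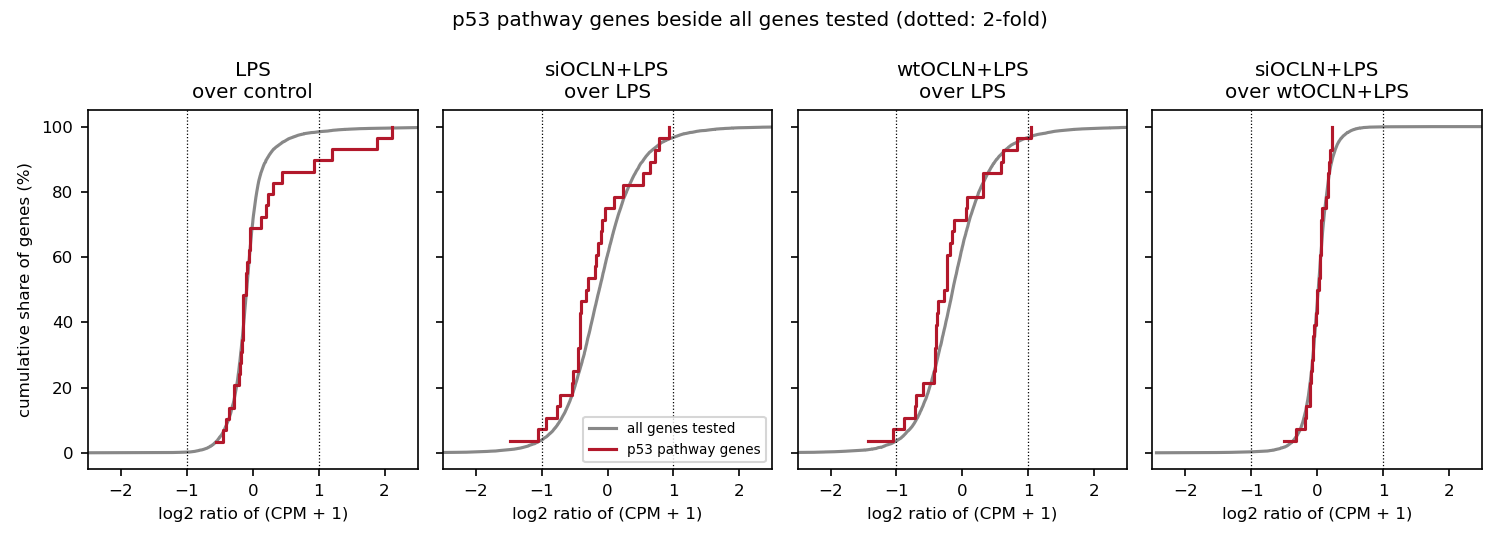
Cumulative share of genes (vertical axis, percent) at or below each log2 ratio of (CPM + 1) (horizontal axis) for the p53 pathway genes in red and all genes tested in grey, in 4 comparisons. Dotted lines mark 2-fold. In LPS over control the red line departs from the grey one at the upper end, where PLK2, PLK3 and DRAM1 lie, and in siOCLN+LPS over wtOCLN+LPS it stays between -0.50 and 0.23.

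Set against the library labelled wtOCLN+LPS, likewise transfected and given LPS, siOCLN+LPS showed no gene of the pathway past 1.5-fold in either direction among 28 tested. Of all 13109 genes, 0.0763% were at least 2-fold higher and 0.29% at least 2-fold lower in siOCLN+LPS. At 1.5-fold the shares over all genes were 0.755% and 1.19%. The pathway median was 0.01 on the log2 scale, beside 0.02 over all genes. CCNG1 had a ratio of 1.0 (0.940 to 1.06), MDM2 of 0.992 (0.936 to 1.05), ZMAT3 of 0.959 (0.819 to 1.12) and CDKN1A of 1.04 (1.01 to 1.07). The ends of the range were SESN1 at 0.679 (0.536 to 0.857), with 7.10 CPM in siOCLN+LPS and 10.5 CPM in wtOCLN+LPS, and FDXR at 1.18 (1.05 to 1.33). TP53INP1 had a ratio of 0.783 (0.621 to 0.985), ATM of 1.17 (1.1 to 1.25) and PLK2 of 0.880 (0.848 to 0.914). Counting intervals included 1 for 17 of the 28 genes, and the spread between cultures is unknown. In the same comparison 10 of 15 interferon-stimulated genes were at least 2-fold lower in siOCLN+LPS.

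The transfected libraries differ from control by both a named transfection and LPS. Their log2 ratio to control is the sum of the ratio to LPS and that of LPS to control, so it is no separate observation. PHLDA3, past 2-fold over LPS in wtOCLN+LPS, was 1.76-fold (1.59 to 1.95) and 1.88-fold (1.70 to 2.09) higher than in control with library totals. In siOCLN+LPS over control 29 genes were tested, 3 were at least 2-fold higher (3.94% of all genes) and 5 at least 2-fold lower (5.44% of all genes). In the library labelled wtOCLN+LPS over control 3 of 29 were higher (3.91% of all genes) and 3 lower (4.91% of all genes). PLK3 was 3.51-fold (3.20 to 3.85) and 3.36-fold (3.06 to 3.69) higher than in control, and PLK2 2.79-fold (2.64 to 2.94) and 3.16-fold (3.0 to 3.34). DRAM1 passed 2-fold in siOCLN+LPS at 2.04-fold (1.82 to 2.29), and GADD45B in wtOCLN+LPS at 2.09-fold (1.97 to 2.21). CDKN1A was 1.93-fold (1.87 to 2.00) and 1.86-fold (1.80 to 1.92) higher, and with TMM scaling its log2 ratios of 1.19 and 1.15 passed 2-fold. ZMAT3 was at 0.336 (0.294 to 0.383) and 0.351 (0.308 to 0.399) of control, CCNG1 at 0.445 in both, and POLH at 0.444 (0.400 to 0.493) and 0.460 (0.414 to 0.510). ACER2, on 23 counts in siOCLN+LPS, 23 in wtOCLN+LPS and 44 in control, was at 0.475 (0.274 to 0.804) and 0.475 (0.274 to 0.803) of control, but at -0.70 in both on the log2(CPM + 1) scale, inside 2-fold. TP53INP1 and SESN1 passed 2-fold in siOCLN+LPS and not in wtOCLN+LPS, a difference with no test, at 0.440 (0.356 to 0.542) and 0.464 (0.371 to 0.578) of control, against 0.562 (0.463 to 0.682) and 0.684 (0.561 to 0.832) in wtOCLN+LPS. With TMM scaling 6 and 7 genes were at least 2-fold higher (5.88% and 5.86% of all genes). In the other direction 1 and 1 were lower (2.71% and 2.39% of all genes), ZMAT3 being the gene that stayed lower. Of all genes 2-fold apart, 42.0% and 44.4% were higher with library totals and 68.5% and 71.0% with TMM.

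Genes of the p53 network outside the 30 were read from 3 further lists. Of 18 regulators tested, TP63, a p53 family member of basal epithelial cells, was the one farthest from LPS, at 12.2 CPM in siOCLN+LPS, 21.1 CPM in wtOCLN+LPS, 2.96 CPM in LPS and 2.01 CPM in control. It was 4.14-fold (2.95 to 5.94) and 7.15-fold (5.17 to 10.1) higher in the transfected libraries than in LPS. TP73, the other family member, was at 15.4, 14.6, 8.58 and 8.43 CPM, 1.80-fold (1.45 to 2.25) and 1.70-fold (1.37 to 2.14) higher than in LPS. The deacetylase gene SIRT1 was at 0.451 (0.404 to 0.501) and 0.528 (0.477 to 0.585) of LPS, and the coactivator gene EP300 at 0.635 (0.605 to 0.665) and 0.726 (0.694 to 0.759). Of the 18, 1 was at least 2-fold higher and 1 lower than LPS in siOCLN+LPS, beside 3.32% and 3.92% of all genes. In wtOCLN+LPS 1 was higher and 0 lower, beside 3.32% and 3.69%. The list medians were -0.15 and -0.26, beside -0.13 and -0.15 over all genes. In LPS over control none of the 18 regulators was 2-fold apart, where 1.6% of all genes were higher and 0.207% lower.

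Of 19 apoptosis genes tested in LPS over control, 2 were at least 2-fold higher and 0 lower, beside 1.6% and 0.207% of all genes. These were BBC3, which encodes the BH3 protein PUMA, at 21.1 CPM in LPS and 8.43 CPM in control, 2.51-fold (2.04 to 3.10), and TNFRSF6B, a decoy receptor gene, 2.38-fold (2.08 to 2.73). The BH3 gene BID was 2.00-fold higher (1.79 to 2.24). Against LPS, 1 of 19 was at least 2-fold higher and 1 lower in each transfected library, where 3.32% and 3.92% of all genes in siOCLN+LPS and 3.32% and 3.69% in wtOCLN+LPS were, so the list's counts lie near the background. The list medians were -0.14 and -0.14, beside -0.13 and -0.15 over all genes. The 2 genes are given for their values. TP53I11 was 3.92-fold (3.55 to 4.33) and 4.12-fold (3.74 to 4.55) higher, and the decoy death receptor gene TNFRSF10D stood at 0.465 (0.418 to 0.517) and 0.483 (0.435 to 0.536). Of 27 genes of metabolism, arrest and repair tested, NINJ1, a gene of membrane rupture in dying cells, and SUSD6 were 4.63-fold (4.23 to 5.08) and 3.07-fold (2.87 to 3.29) higher in LPS than in control, and 0 were lower. Against LPS, 1 of these 27 genes was at least 2-fold higher in each transfected library, and 1 in siOCLN+LPS and 0 in wtOCLN+LPS lower. The list medians were 0.17 in siOCLN+LPS and 0.11 in wtOCLN+LPS, against the pathway medians of -0.31 and -0.26, and 19 of 27 genes lay above the all-gene median in each library. Farthest from LPS were 3 genes: the antiviral gene TRIM22 was 2.53-fold (2.22 to 2.88) and 4.99-fold (4.42 to 5.64) higher, the sestrin gene SESN2 stood at 0.421 (0.335 to 0.526) and 0.492 (0.397 to 0.608), and BTG1, an antiproliferative gene, at 0.498 (0.447 to 0.553) and 0.535 (0.482 to 0.593). TRIM22 is also interferon-induced and SESN2 is also an ATF4 target.

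With library totals, cell cycle genes that p53 lowers through p21 and the DREAM complex lay below LPS in both transfected libraries, 18 of 18 each, with medians of -0.29 and -0.38. The all-gene medians were -0.13 and -0.15. Of the 18, 0 in siOCLN+LPS and 1 in wtOCLN+LPS were at least 2-fold lower. With TMM scaling 12 of 18 in siOCLN+LPS and 16 of 18 in wtOCLN+LPS lay below LPS. Relative to the all-gene median, 12 of 18 lay below it in siOCLN+LPS and 16 of 18 in wtOCLN+LPS. AURKA, a mitotic kinase gene, was at 50.2 CPM in siOCLN+LPS, 42.9 CPM in wtOCLN+LPS, 98.0 CPM in LPS and 115 CPM in control.

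The pathway genes at least 1.5-fold higher in the transfected libraries than in LPS had transcripts rich in G and C, a property that played no part in choosing them. The 4 genes at least 1.5-fold higher than in LPS were CDKN1A, GADD45B, PHLDA3 and TP53I3 in each library, and their longest transcripts held 58.1% to 59.6% GC. The 5 at least 1.5-fold lower in siOCLN+LPS (PPM1D, CCNG1, ZMAT3, POLH and TP53INP1) held 38.2% to 47.2%, and the 6 in wtOCLN+LPS (PPM1D, BTG2, CCNG1, ZMAT3, POLH and PERP) held 38.2% to 50.3%. The median over all genes tested was 48.5%. The higher genes also had short transcripts, of 1998 to 2640 bases, against 2458 to 9406 bases for the lower genes of each library. Across the 28 genes, which are not independent replicates, the log2 ratio to LPS and the GC content had a Pearson r of 0.71 and a Spearman rho of 0.62 in siOCLN+LPS, and of 0.70 and 0.64 in wtOCLN+LPS. Across all 13183 and 13172 genes with a transcript length the Pearson r was 0.15 and 0.16. With the log10 of transcript length, the Pearson r was -0.36 and -0.38 across the 28 genes, and -0.12 and -0.10 across all genes. Which of GC content and length goes with the ratios was not tested. PLK3 and FDXR, at 61.2% and 61.8% GC, did not follow one side, with PLK3 below LPS and FDXR above it. After the trend with transcript length and GC content over all genes was removed, ZMAT3 stood at a log2 ratio of -1.35 in siOCLN+LPS and -1.31 in wtOCLN+LPS, and CCNG1 at -0.97 and -0.96. PHLDA3 then stood at 0.93 in wtOCLN+LPS, so that CCNG1 in both libraries and PHLDA3 no longer passed 2-fold.

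**Figure D4:**
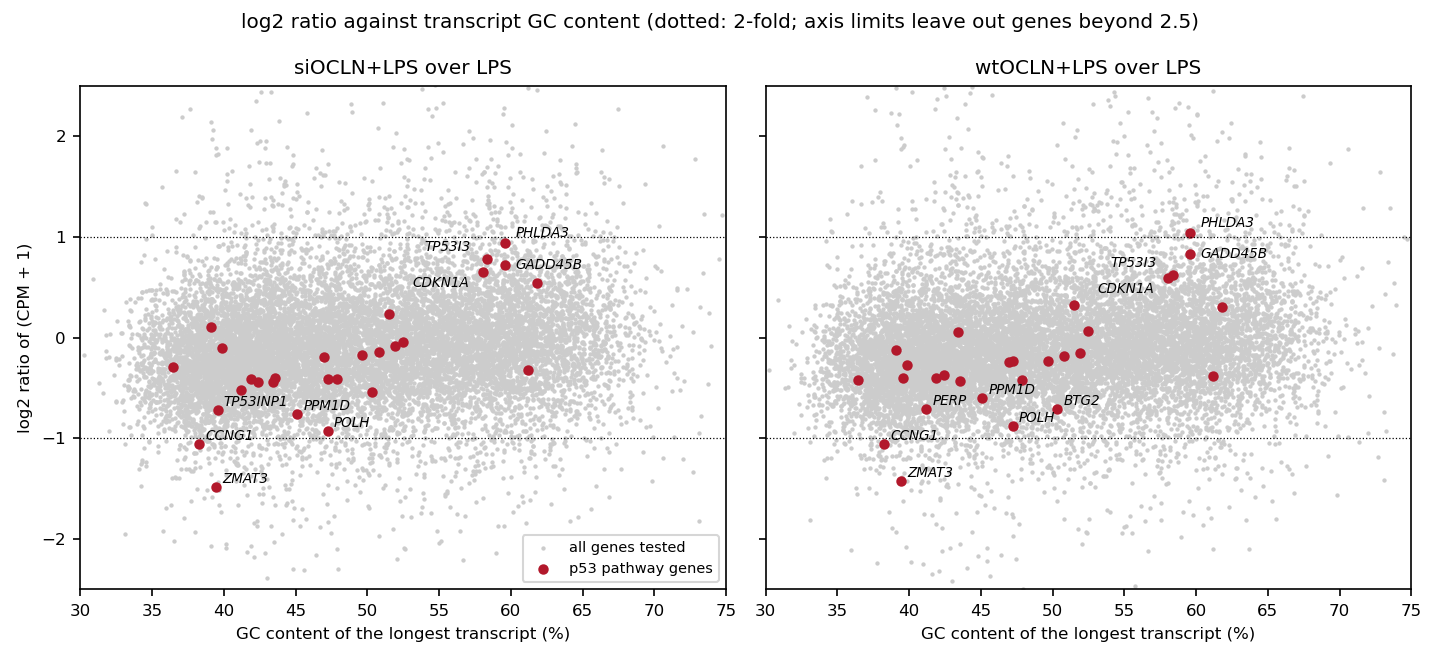
log2 ratio of (CPM + 1) to LPS (vertical axis) against the GC content of the longest transcript in percent (horizontal axis), for siOCLN+LPS on the left and wtOCLN+LPS on the right. Red points are p53 pathway genes, named where at least 1.5-fold apart, and grey points are all genes tested. The red points above 0.58 lie near 59.0% GC, whereas ZMAT3 lies at 39.5% and CCNG1 at 38.2%.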

How the data were processed

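Per the labels' protocols, 1.3 µg of total RNA per sample went into NEBNext Ultra II Directional libraries. The submitters' processing notes name TopHat, Cufflinks and hg19, with no version or role, and neither the counting tool nor its strand setting is stated there or in the labels. The deposited values are raw counts per gene symbol, 1 table for each of the 4 libraries, with no symbol listed more than once.

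CPM was computed from library totals. Ratios were taken as log2(CPM + 1) differences where at least one library of the pair reached 1 CPM, and a gene was called at 2-fold or more on that scale. Printed folds are plain CPM ratios with exact 95% Clopper-Pearson intervals, which cover counting error only, since reads without molecular identifiers are not independent molecules. With 1 library a group, a replicated test such as edgeR's had nothing to fit and no p-value is given. The calculation was tested on simulated data.

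The pathway genes and all gene lists were chosen with earlier results of these data known. Values in all 4 libraries are given for genes at least 2-fold apart by CPM ratio at 5 CPM or more in any of the 6 comparisons, for 5 regulators and for CDKN1A, and other genes are named after their values were seen or by the largest ratios of their list. Of 157 listed genes, 156 were matched. Some single genes of these lists are not reported here. Length and GC share of each gene are those of its longest transcript in GENCODE 29, matched by symbol. Alternatives were other pseudocounts, filters, fold thresholds and scalings (TMM from edgeR 4.0.16 in R 4.3.3, upper quartile, median ratio), and removal of the length and GC trend. Python 3.11.15, pandas 2.3.3, NumPy 2.4.6, SciPy 1.17.1 and matplotlib 3.10.9 were used.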

Additional observations from a re-analysis of the deposited data

How the results depend on the processing

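No paired analysis was possible because each group had 1 library, and for the same reason no library could be left out. In LPS over control and in siOCLN+LPS over wtOCLN+LPS, the counts of pathway genes past 2-fold stayed within 1.5 times the reported ones under every alternative run. In siOCLN+LPS over LPS, with 0 higher and 2 lower as reported, median ratio, upper quartile and TMM scaling each gave 1 higher and 1 lower, a threshold of 1.5-fold gave 4 higher and 5 lower, a threshold of 3-fold gave 0 lower, and removing the length and GC trend gave 1 lower. In wtOCLN+LPS over LPS, with 1 higher and 2 lower as reported, the 3 scalings each gave 1 lower, 1.5-fold gave 4 higher and 6 lower, 3-fold gave 0 higher and 0 lower, a pseudocount of 5 CPM gave 0 higher, and removing the trend gave 0 higher and 1 lower. The shares of all genes were 2.48% to 2.83% lower with the scalings, and 8.59% higher and 15.1% lower at 1.5-fold. They were 1.07% higher and 0.682% lower at 3-fold, 1.88% higher with that pseudocount, and 3.09% higher and 3.80% lower without the trend. In siOCLN+LPS over control, with 3 higher and 5 lower as reported, median ratio, upper quartile and TMM scaling gave 6, 5 and 6 higher and 1 lower each, 1.5-fold gave 7 higher, 3-fold gave 1 higher and 0 lower, and a pseudocount of 5 CPM and removal of the trend each gave 3 lower. Among all genes the scalings gave 5.46% to 5.88% higher and 2.71% to 3.06% lower. At 1.5-fold 8.91% were higher, and at 3-fold 1.51% were higher and 0.780% lower. With that pseudocount 1.74% and without the trend 5.40% were lower. In wtOCLN+LPS over control, with 3 higher and 3 lower as reported, the same scalings gave 7, 6 and 7 higher and 1 lower each, 1.5-fold gave 7 higher and 7 lower, and 3-fold gave 0 lower. Of all genes, 5.27% to 5.86% were higher and 2.39% to 2.83% lower with the scalings. At 1.5-fold 8.48% were higher and 21.6% lower, and at 3-fold 0.649% were lower. The scalings shift all ratios of a comparison by nearly the same amount, and the cause of that shift was not tested. Of the values of single named genes under these alternatives, 522 kept their side of 2-fold, 34 fell inside 2-fold, 20 passed it, and none past 2-fold changed sign. For genes inside 2-fold the sign was not part of this count. Some of them changed sign between scalings, such as ATM in wtOCLN+LPS over LPS. For EDA2R and SPATA18, with few counts, no difference was detectable at this depth in any of the 6 comparisons.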
